A study of Mus musculus with 19 samples.

Results

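Acsbg1 and 7 other genes of the acyl-CoA synthetase families were examined in E0771 mouse mammary carcinoma cells taken back out of tumors of lean and obese mice. The 8 genes, Acsbg1, Acsl1, Acsl3, Acsl4, Acsl5, Slc27a1, Slc27a3 and Slc27a4, were found by symbol among the 39017 genes of the count table, and all 8 passed the filter on low counts, which left 16352 genes for testing. The family was chosen by the measured counts of Acsbg1 in midpoint tumors, where its difference between obese and lean mice was already known. The gene also appears in a published study of this model that may rest on these libraries. Values of the midpoint comparison are therefore given as a description: no p is printed for them, and nothing is read from the counts of members past the threshold there.

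E0771 is a carcinoma line of the C57BL/6 strain, and the implanted cells carried the red fluorescent protein mCherry in every group. The cells were placed in the mammary fat pad of mice that the labels call lean and whose sample names say chow, or of mice called obese whose names say HFD. Tumors were dissociated at the midpoint, day 14, or the endpoint, day 21, and mCherry-positive cells were sorted and their RNA sequenced, with 1 library for each tumor. The comparisons used 4 lean and 5 obese tumors at the midpoint and 4 lean and 5 obese tumors at the endpoint. All groups share the line, the label and the site of implantation, and the age, the sex and the genotype of the hosts and the make-up of the diets are not given in the labels used here. Every tumor grew from the same implanted line, so the replicates sample hosts and tumors and not independent cancers.

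Acyl-CoA synthetases join a fatty acid to coenzyme A at the cost of ATP, the step that commits a fatty acid to oxidation, to membrane and storage lipids or to protein acylation. The ACSL enzymes act on long-chain fatty acids, the SLC27A proteins (also called fatty acid transport proteins) combine synthetase activity on long and very long chains with a part in fatty acid uptake, and the bubblegum enzyme ACSBG1 was described mainly in brain, adrenal gland and testis. In tumors the family is known for channelling fatty acids from the surroundings into lipids, and ACSL4 for supplying the polyunsaturated phospholipids that are oxidised in ferroptosis.

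The stretch of 250 bases before the transcription start is shown for Acsbg1, around which the family was chosen, and for Acsl3, Acsl4 and Slc27a4, which had the largest differences between day 14 and day 21 in obese tumors before any correction for GC content. The sequences are from RefSeq, build GRCm38.p6, which is mm10, and are written 5′ to 3′ on the strand of the gene. Capitals mark matches on either strand to a GC box (GGGCGG) or a CCAAT box (CCAAT). In Acsl3 a CCAAT match runs straight into a GC box, and in Acsl4 a pair of GC box matches overlap, so each gives 1 longer run of capitals.
Acsbg1, chr9:54661886-54662135, minus strand: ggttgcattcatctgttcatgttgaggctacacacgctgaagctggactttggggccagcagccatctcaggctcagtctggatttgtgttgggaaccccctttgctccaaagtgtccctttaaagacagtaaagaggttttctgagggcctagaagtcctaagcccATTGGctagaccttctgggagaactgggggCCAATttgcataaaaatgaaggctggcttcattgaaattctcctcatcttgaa
Acsl3, chr1:78657575-78657824, plus strand: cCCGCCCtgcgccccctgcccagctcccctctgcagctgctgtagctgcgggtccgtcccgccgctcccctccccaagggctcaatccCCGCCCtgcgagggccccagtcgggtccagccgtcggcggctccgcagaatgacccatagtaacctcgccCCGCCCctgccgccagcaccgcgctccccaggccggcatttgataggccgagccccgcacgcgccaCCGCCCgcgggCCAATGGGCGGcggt
Acsl4, chrX:142390536-142390785, minus strand: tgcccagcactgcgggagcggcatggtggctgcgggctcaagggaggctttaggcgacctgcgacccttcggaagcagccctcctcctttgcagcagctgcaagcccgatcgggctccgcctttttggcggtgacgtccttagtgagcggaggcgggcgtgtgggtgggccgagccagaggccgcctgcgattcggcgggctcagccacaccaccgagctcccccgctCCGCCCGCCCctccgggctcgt
Slc27a4, chr2:29802384-29802633, plus strand: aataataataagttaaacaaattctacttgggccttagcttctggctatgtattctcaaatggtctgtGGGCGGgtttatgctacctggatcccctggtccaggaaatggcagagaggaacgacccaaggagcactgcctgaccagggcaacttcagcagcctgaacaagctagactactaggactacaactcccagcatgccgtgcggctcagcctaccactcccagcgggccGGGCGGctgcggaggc
The Acsbg1 stretch had 48.4% GC, 1 CpG, 2 CCAAT matches and 0 GC boxes, whereas that of Acsl3 had 75.6% GC, 28 CpGs, 5 GC boxes and 1 CCAAT match. Acsl4 had 70.8% GC, 25 CpGs and 2 GC boxes, and Slc27a4 had 54.4% GC, 8 CpGs and 2 GC boxes. Among the other members, whose stretches are not printed, Acsl1 had 4 GC boxes and Slc27a3 had 2, while Acsl5 and Slc27a1 had 0 of these and 1 CCAAT match each. Over the 32851 promoters of the table, the median was 52.4% GC and 6 CpGs, a GC box was found in 32.7% and a CCAAT box in 33.9%. TATAAA, present in 12.4% of all promoters, AGGTCA, in 14.0%, and CACGTG, in 6.02%, were searched as well and had 0 matches in the 8 members. These matches are letters in a window and were not related to binding or to expression.

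The 8 genes lie on 7 chromosomes, with the positions that follow given in mm10 as in the deposited table. Acsbg1 (ENSMUSG00000032281) spans chr9:54604877-54661870, Acsl1 (ENSMUSG00000018796) chr8:46471041-46536051, Acsl3 (ENSMUSG00000032883) chr1:78657825-78706987 and Acsl4 (ENSMUSG00000031278) chrX:142317993-142390535. Acsl5 (ENSMUSG00000024981) spans chr19:55253369-55296627, Slc27a1 (ENSMUSG00000031808) chr8:71568927-71586708, Slc27a3 (ENSMUSG00000027932) chr3:90385239-90389938 and Slc27a4 (ENSMUSG00000059316) chr2:29802634-29817522. Acsl3 shares 206 of its 3601 exon bases with Utp14b on the same strand, so a small part of its count may belong to that gene. The exons of the other 7 members overlap no other annotated gene.

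The members differ in base composition. The GC content of the longest transcript was 39.0% for Acsl4, 43.2% for Acsl3, 44.8% for Acsl1 and 47.6% for Acsl5, below the median of 49.9% over the tested genes. It was 55.4% for Acsbg1, 56.8% for Slc27a4, 56.9% for Slc27a1 and 60.9% for Slc27a3. Within the family the ACSL genes were thus all on the AT-rich side, and the SLC27A genes and Acsbg1 all on the GC-rich side.

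The 18 libraries held 44174080 to 56996252 counts each. They differed in how read counts followed GC content: the slope, in log2 CPM (counts scaled to library size) per 10 percentage points of GC, was 0.106 to 0.443 in lean and 0.326 to 1.52 in obese midpoint libraries, and -0.874 to -0.0643 in lean and -0.874 to -0.419 in obese endpoint libraries. The ranges of day 14 and day 21 did not overlap, and the labels do not say whether the time points were handled together, so time and any such handling cannot be told apart. Mitochondrial genes took 5.79% to 12.3% of counts at day 14 and 17.1% to 44.7% at day 21, and the highest value, in lean endpoint replicate 1, stood apart from the next, 24.4%. Because the members differ in GC content, each member's difference is given as fitted and again after a per-library correction for GC content and transcript length. Lean endpoint replicate 4 was left out, since its 11889188 counts stop on chromosome 5 and 5 of the 8 members are at 0 there.

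Markers of the sorted cells were checked. Among 6 epithelial genes, Krt8, a keratin of simple epithelia, had group means of 20.9 to 47.8 CPM, whereas the other 5, including Epcam and Krt18, had means under 1 CPM in every group. The libraries also held RNA of leukocyte genes: the summed level of 9 pan-leukocyte markers was 101 to 212 CPM in lean and 78.5 to 132 CPM in obese midpoint libraries, and 96.0 to 145 CPM in lean and 76.7 to 271 CPM in obese endpoint libraries. Lcp1 had the highest mean of these markers in every group, at 29.6 to 80.2 CPM, whereas Ptprc had group means of 1.14 to 12.3 CPM. The 12 macrophage markers summed to 239 to 562 CPM, 179 to 351 CPM, 243 to 415 CPM and 134 to 733 CPM in the same order of groups. The 9 adipocyte markers summed to 4.51 to 10.2 CPM at day 14 and 11.9 to 80.8 CPM at day 21, mostly from Fabp4, and Adipoq, which defines mature fat cells, had a mean of at most 0.0232 CPM in every group. The 10 T cell markers summed to 3.93 to 24.8 CPM and the 7 endothelial markers to 5.39 to 17.6 CPM. The 10 fibroblast markers reached 1263 to 3183 CPM, mostly from Col3a1, followed by Dpt and Pdgfra. Group means were 323 to 426 CPM for Dpt and 128 to 424 CPM for Pdgfra. The other genes of this list had group means of at most 30.7 CPM, reached by Dcn in obese endpoint tumors. Col1a1 had at most 10.1 CPM and Fap at most 0.345 CPM. In such sorted bulk samples, fewer cells of a type and less RNA per cell cannot be told apart.

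Compared per length, as CPM per kilobase of exon (RPKM), Acsl5 and Slc27a1 were the 2 most abundant members in all 4 groups. Acsl5, a long-chain synthetase of the endoplasmic reticulum and mitochondria studied mostly in intestine and liver, had a mean level of 69.4 ± 7.27 RPKM (SD, n = 4) in lean and 44.1 ± 18.9 RPKM (SD, n = 5) in obese midpoint tumors, and of 65.1 ± 9.21 RPKM (SD, n = 4) and 61.8 ± 3.89 RPKM (SD, n = 5) at the endpoint. Slc27a1, the transport protein of muscle and fat, had a level of 50.4 ± 8.46 RPKM and 86.8 ± 29.8 RPKM at the midpoint and 39.4 ± 13.6 RPKM and 40.3 ± 2.50 RPKM at the endpoint. Slc27a3 was the least abundant, with 30 to 90 counts in a library and 0.203 to 0.697 RPKM, which limits what can be seen for it.

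The summed level of the 8 members overlapped between the 4 groups, at 146 ± 7.44 RPKM (SD, n = 4) in lean and 162 ± 17.9 RPKM (SD, n = 5) in obese midpoint tumors and 158 ± 9.44 RPKM (SD, n = 4) and 150 ± 8.80 RPKM (SD, n = 5) at the endpoint. The shares of single genes varied more between groups. Acsl3 had a mean share of 5.97% and 2.81% of the summed level in lean and obese midpoint tumors, and of 20.7% and 16.7% at the endpoint. Acsl4 had a mean share of 1.37% and 0.704% at the midpoint and of 4.69% and 5.84% at the endpoint, and Slc27a4 of 7.25% and 11.5% and then 4.57% and 4.39%. Acsbg1 made up 1.07% and 2.76% of the summed level at the midpoint and 0.971% and 2.06% at the endpoint. These shares are not corrected for GC content.

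**Figure D1:**
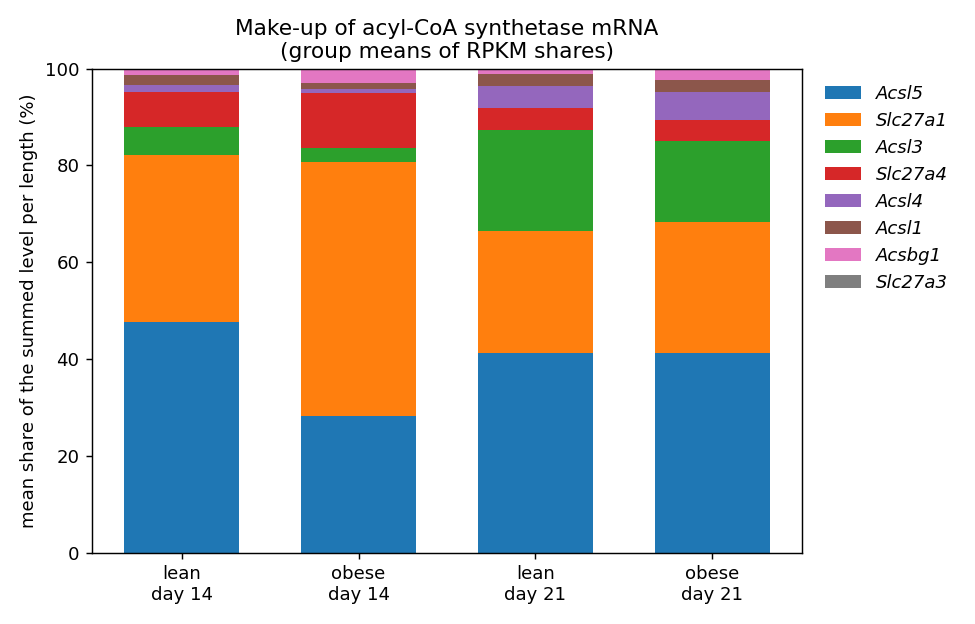
Stacked bars give the mean share (%) of each of the 8 genes in their summed level per length (RPKM) in lean and obese tumors at day 14 and day 21. Acsl5 and Slc27a1 form the largest parts in each group, and the Acsl3 part is 20.7% and 16.7% at day 21 against 5.97% and 2.81% at day 14.

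Acsbg1, the bubblegum synthetase, had a higher mean level in obese than in lean tumors at both time points, and the endpoint difference did not pass the test. Its level in lean midpoint replicates 1 to 4 was 2.97, 5.08, 6.03 and 8.71 CPM, and in obese midpoint replicates 1 to 5 it was 9.30, 26.4, 16.6, 14.9 and 14.9 CPM. In lean endpoint replicates 1, 2, 3 and 5 it was 2.93, 4.95, 8.70 and 5.17 CPM, and in obese endpoint replicates 1 to 5 it was 12.4, 10.6, 16.4, 8.93 and 7.38 CPM. At the midpoint every obese tumor lay above every lean one, with 9.30 CPM as the lowest obese and 8.71 CPM as the highest lean value, and at the endpoint 1 obese tumor, at 7.38 CPM, lay below the highest lean one, at 8.70 CPM. The counts behind these values were 93 to 1142 in a library.

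In order of mean level, Acsbg1 stood at 5.44 ± 2.39 CPM (SD, n = 4) in lean endpoint, 5.70 ± 2.38 CPM (SD, n = 4) in lean midpoint, 11.1 ± 3.48 CPM (SD, n = 5) in obese endpoint and 16.4 ± 6.24 CPM (SD, n = 5) in obese midpoint tumors. The lean groups differed by less than their spread, and the ranges of the obese groups overlapped. At the midpoint the fitted log2 difference of obese against lean was 1.53 ± 0.35 (SE), a ratio of 2.88, and after the correction for GC content and length it was 1.16 ± 0.30 (SE). This is the difference for which the gene was chosen, so no test is given. Both obese midpoint libraries with the steepest GC slopes, replicates 2 and 3, also had the highest Acsbg1 levels; without these 2 and lean endpoint replicate 1 the midpoint difference was 1.19 on the log2 scale.

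The endpoint tumors are other animals' tumors, and there the log2 difference of Acsbg1 was 1.03 ± 0.35 (SE), a ratio of 2.04. It did not pass edgeR's quasi-likelihood test after Benjamini-Hochberg adjustment over all 16352 genes (adjusted p = 0.989). The correction for GC content and length left the size as it was, at 1.07 ± 0.30 (SE, adjusted p = 0.367). Leaving out 1 endpoint library at a time gave 0.84 to 1.35. The summed pan-leukocyte level overlapped between these lean and obese endpoint groups, and the difference was 1.05 when the mean of those markers entered the fit. Over time Acsbg1 differed by -0.06 ± 0.36 (SE) in lean and by -0.56 ± 0.32 (SE) in obese tumors on the log2 scale, and by 0.27 and 0.18 after the correction. The diet difference at the endpoint minus that at the midpoint was -0.50 ± 0.48 (SE) for Acsbg1, and these last 3 values share the midpoint libraries with the choice of the gene.

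**Figure D2:**
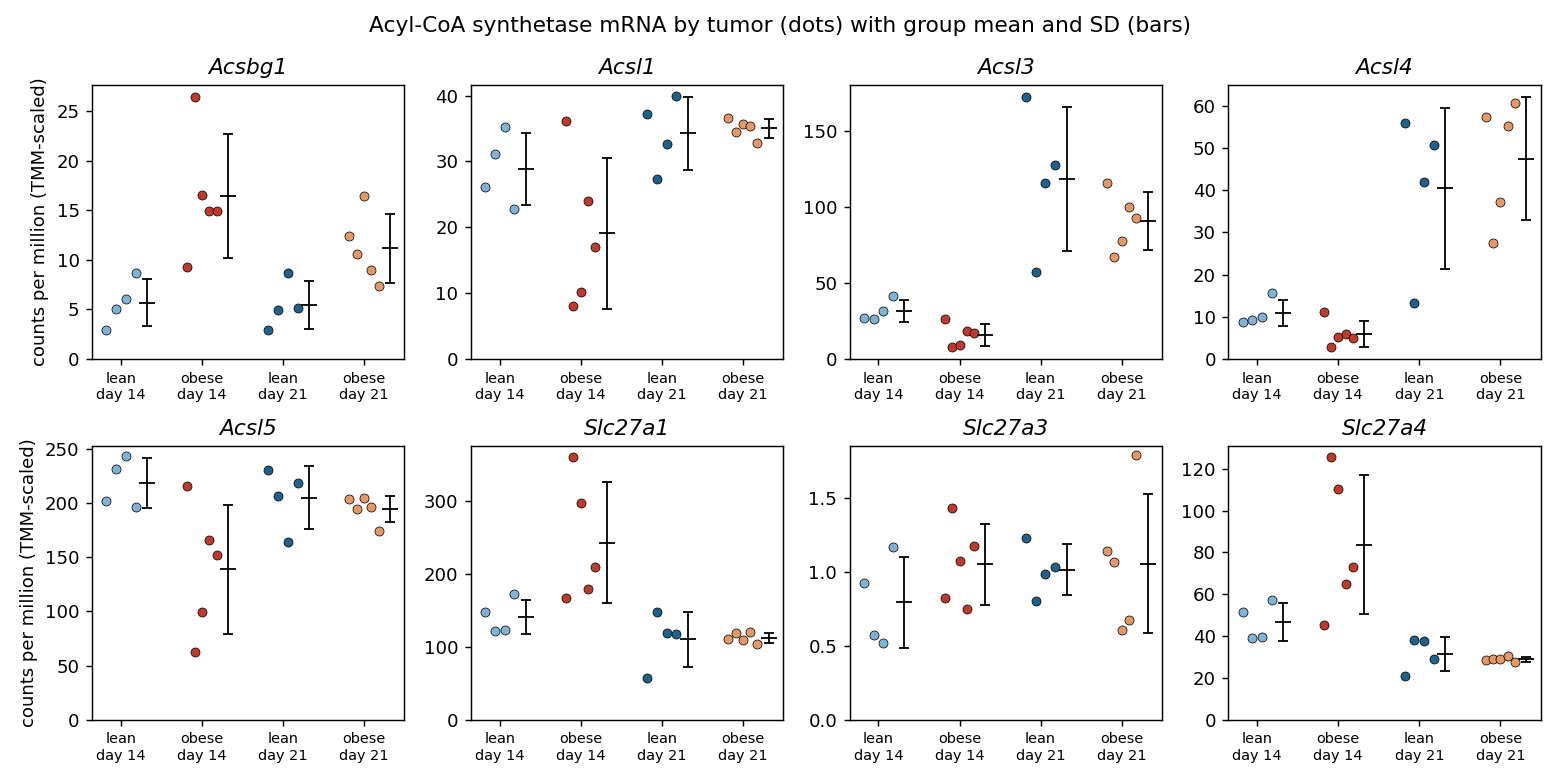
Dots are single tumors and bars the group mean with SD, in TMM-scaled CPM on a linear axis from 0, for each gene in lean and obese tumors at day 14 and day 21. Acsbg1 lies between 9.30 and 26.4 CPM in obese and between 2.97 and 8.71 CPM in lean tumors at day 14, and Acsl3 and Acsl4 have their highest values at day 21.

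At the midpoint 5 of the 8 members were past an adjusted p of 0.05 between obese and lean tumors, 3 higher and 2 lower, where 29.5% of all tested genes were, 16.7% higher and 12.8% lower. Nothing is read from this count, since the members were chosen with this comparison known. The GC-rich members had positive and the AT-rich members negative log2 differences: 0.78 ± 0.25 (SE) for Slc27a1, 0.84 ± 0.25 for Slc27a4 and 0.40 ± 0.33 for Slc27a3, against -0.999 ± 0.32 for Acsl3, -0.86 ± 0.38 for Acsl4, -0.65 ± 0.24 for Acsl5 and -0.60 ± 0.30 for Acsl1. After the correction for GC content and length these 7 log2 differences were between -0.42 and 0.40, and that of Acsbg1 was 1.16. After it, 1 of the 8 was past the threshold, where 11.9% of the genes were, 8.26% higher and 3.66% lower, and nothing is read from this count either. The uncorrected midpoint signs thus split at the GC median for all 8 members, a description from the comparison that the choice used. Over time the uncorrected split was not complete. There Slc27a3 was at 0.35 in lean and 0.01 in obese tumors and Acsl5 at -0.09 in lean tumors, whereas the other AT-rich values were positive and the other GC-rich values negative. The cause of these signs was not tested. The leukocyte lists did not all move in 1 direction in this comparison. In obese midpoint tumors 0 of 9 pan-leukocyte markers were higher and 5 lower, with a median log2 difference of -1.44. Among 12 macrophage markers 0 were higher and 4 lower. The T cell list went the other way, with 2 of 10 markers higher and 0 lower and a median log2 difference of 0.37. With the pan-leukocyte mean in the fit, the log2 difference was 1.06 for Acsbg1, -0.94 for Acsl3, 0.69 for Slc27a4 and 0.67 for Slc27a1, and 0 members were past the threshold.

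At the endpoint 0 of the 8 members passed the test between obese and lean tumors, where 0.00612% of all genes did, which is 1 gene. After the correction 0 of 8 passed as well, where 0.0062% of genes did. One of the members, Acsbg1, had an unadjusted p under 0.05, as had 800 of the 16352 genes, and DESeq2 and limma-voom also called 0 members. The other 7 had log2 differences between -0.38 ± 0.31 (SE) for Acsl3 and 0.23 ± 0.38 (SE) for Acsl4, and every one of these had overlapping groups.

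Endpoint and midpoint tumors differed more, and the same libraries serve the diet and the time comparisons. In lean tumors 2 of the 8 members passed the test, both higher at the endpoint, where 30.9% of all genes passed, 21.4% higher and 9.5% lower. In obese tumors 5 passed, 3 higher and 2 lower, where 73.9% of all genes passed, 37.8% higher and 36.1% lower. The median log2 difference of the members was 0.09 in lean and 0.25 in obese tumors, beside 0.04 and -0.00148 over all tested genes. Of the 9 pan-leukocyte markers 0 rose and 4 fell over time in lean tumors, and 5 rose and 2 fell in obese tumors. In obese tumors the mean of Ptprc went from 1.14 to 12.3 CPM and that of Cd52 from 15.1 to 6.30 CPM. The list thus did not move in 1 direction there. With the mean of the 9 markers in the fit, 2 and 5 members were called, as without it.

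Acsl3 rose from day 14 to day 21 in both lean and obese tumors. ACSL3 resides in the endoplasmic reticulum and on lipid droplets, where it supports droplet formation. Its level in lean midpoint replicates 1 to 4 was 27.2, 26.2, 31.5 and 41.6 CPM, and in lean endpoint replicates 1, 2, 3 and 5 it was 172, 57.3, 116 and 127 CPM. In obese midpoint replicates 1 to 5 it was 26.1, 7.97, 9.27, 18.5 and 17.1 CPM, and in obese endpoint replicates 1 to 5 it was 116, 66.9, 78.0, 100.3 and 92.7 CPM. Every endpoint tumor lay above every midpoint tumor, in lean and in obese mice. The log2 difference was 1.90 ± 0.34 (SE, adjusted p = 0.000553, edgeR) in lean and 2.52 ± 0.32 (SE, adjusted p = 1.5e-06, edgeR) in obese tumors.

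The rise of Acsl3 became smaller with the correction for GC content and length and kept its call. It was 0.95 ± 0.21 (SE, adjusted p = 0.00368, edgeR) in lean and 0.92 ± 0.19 (SE, adjusted p = 0.000377, edgeR) in obese tumors, ratios of 1.94 and 1.89 in place of 3.74 and 5.74. On the corrected log2 CPM scale the lean midpoint levels were 5.25, 4.88, 5.11 and 5.71 and the lean endpoint levels 6.59, 5.75, 6.18 and 6.26, so the groups still did not overlap. In all 8 lean and 10 obese uncorrected fits that left out 1 library, Acsl3 stayed past the threshold, at 1.64 to 2.08 and 2.34 to 2.78. Such fits were not run with the correction. The library that was left out of the fits, lean endpoint replicate 4, has counts for this gene: scaled to its counts on chromosomes 1 to 4 it stood at 938 CPM, against 36.1 to 735 in the other 18 libraries.

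Acsl4 rose over time as well before the correction. ACSL4 prefers arachidonic acid and other polyunsaturated fatty acids. Its level in lean midpoint replicates 1 to 4 was 8.87, 9.21, 9.95 and 15.5 CPM, and in lean endpoint replicates 1, 2, 3 and 5 it was 55.9, 13.2, 42.0 and 50.6 CPM. In obese midpoint replicates 1 to 5 it was 11.2, 2.78, 5.22, 5.88 and 4.88 CPM, and in obese endpoint replicates 1 to 5 it was 57.3, 27.4, 37.1, 55.1 and 60.6 CPM. The obese groups did not overlap, and in lean tumors the endpoint replicate at 13.2 CPM lay below the highest midpoint one. The log2 difference was 1.89 ± 0.41 (SE, adjusted p = 0.00198, edgeR) in lean and 2.98 ± 0.38 (SE, adjusted p = 2.0e-06, edgeR) in obese tumors.

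Acsl4 has the lowest GC content of the 8 genes, at percentile 3.72 of the tested genes, and its difference over time moved the most with the correction. It became 0.45 ± 0.20 (SE, adjusted p = 0.107, edgeR) in lean tumors, which no longer passed, and 0.64 ± 0.18 (SE, adjusted p = 0.00526, edgeR) in obese tumors, which did, a ratio of 1.56 in place of 7.92. The lean endpoint replicate with the low Acsl4 and Acsl3 levels, replicate 2, also had the flattest GC slope of its group, -0.0643, where the other 3 had -0.874 to -0.635. Without it the lean difference of Acsl4 was 2.13.

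Acsl1 and Acsl5 stand between these genes and the GC-rich ones in base composition. ACSL1 is the main synthetase of fat, heart and liver and is also induced in activated macrophages. Its level in lean midpoint replicates 1 to 4 was 26.1, 31.1, 35.3 and 22.8 CPM and in lean endpoint replicates 1, 2, 3 and 5 it was 37.2, 27.3, 32.7 and 40.0 CPM, with overlapping groups. In obese midpoint replicates 1 to 5 it was 36.2, 8.11, 10.1, 23.9 and 17.01 CPM and in obese endpoint replicates 1 to 5 it was 36.6, 34.5, 35.7, 35.4 and 32.8 CPM, where the groups overlap through obese midpoint replicate 1 alone.

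The direction of Acsl1 over time depended on the correction. As fitted it rose by 0.87 ± 0.29 on the log2 scale (SE, adjusted p = 0.0102, edgeR) in obese tumors and differed by 0.25 ± 0.32 (SE, adjusted p = 0.559, edgeR) in lean tumors. After the correction it fell by 0.74 ± 0.19 (SE, adjusted p = 0.00229, edgeR) in obese and by 0.69 ± 0.21 (SE, adjusted p = 0.0223, edgeR) in lean tumors. With GC content alone in the correction, a step added after the data were seen, the values were -0.36 (adjusted p = 0.0943, edgeR) and -0.46 (adjusted p = 0.104, edgeR). Acsl1 has 9449 exon bases, the most of the 8, and a correction for length alone was not run. The cause of the turn in sign was not tested. Without lean endpoint replicate 1 and obese midpoint replicates 2 and 3, the uncorrected difference in obese tumors was 0.45 (adjusted p = 0.0772, edgeR).

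For Acsl5 the level in lean midpoint replicates 1 to 4 was 202, 232, 244 and 196 CPM and in lean endpoint replicates 1, 2, 3 and 5 it was 231, 207, 164 and 219 CPM. In obese midpoint replicates 1 to 5 it was 215, 62.3, 99.2, 165 and 152 CPM and in obese endpoint replicates 1 to 5 it was 204, 194, 204, 196 and 174 CPM. The obese endpoint levels lay within a narrow range, and among all tumors obese midpoint replicates 2 and 3 were the low ones. Over time Acsl5 differed by -0.09 ± 0.25 (SE, adjusted p = 0.80, edgeR) in lean and by 0.49 ± 0.23 (SE, adjusted p = 0.0598, edgeR) in obese tumors, and by -0.34 and -0.07 after the correction. In obese tumors it passed without obese midpoint replicate 1 (0.70, adjusted p = 0.00556, edgeR) or without replicate 4 (0.56, adjusted p = 0.0484, edgeR).

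Slc27a4 fell over time in obese tumors, with and without the correction. SLC27A4 is the fatty acid transport protein of intestine and skin. Its level in obese midpoint replicates 1 to 5 was 45.2, 126, 110.2, 64.95 and 72.8 CPM and in obese endpoint replicates 1 to 5 it was 28.5, 29.2, 29.2, 30.4 and 27.5 CPM. In lean midpoint replicates 1 to 4 it was 51.7, 38.9, 39.6 and 57.2 CPM and in lean endpoint replicates 1, 2, 3 and 5 it was 20.8, 38.2, 37.8 and 28.9 CPM. Neither the obese nor the lean groups overlapped, although the lowest lean midpoint tumor, at 38.9 CPM, lay close to the highest lean endpoint tumor, at 38.2 CPM.

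The log2 difference of Slc27a4 was -1.53 ± 0.24 (SE, adjusted p = 1.3e-05, edgeR) in obese tumors and -0.74 ± 0.14 (SE, adjusted p = 0.000171, edgeR) after the correction, ratios of 0.345 and 0.599. In lean tumors it was -0.58 ± 0.26 (SE, adjusted p = 0.0947, edgeR) and -0.25 ± 0.16 (SE, adjusted p = 0.251, edgeR) after the correction, and without lean endpoint replicate 2 it passed at -0.73 (adjusted p = 0.0465, edgeR). Whether the change over time differed between obese and lean tumors was not shown by the interaction, which was -0.96 ± 0.35 (SE, adjusted p = 0.102, edgeR). After the correction the interaction was -0.49 ± 0.21 (SE, adjusted p = 0.172, edgeR). Of 18 uncorrected fits that each left out 1 library, 1 passed, at -1.12 without obese midpoint replicate 1 (adjusted p = 0.0171, edgeR). The interaction shares the midpoint libraries with the choice of the members.

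Slc27a1 fell over time in obese tumors as fitted, and the difference did not pass after the correction for GC content and length. The cause of this change was not tested. Its level in obese midpoint replicates 1 to 5 was 167, 360.4, 297, 179.9 and 209 CPM and in obese endpoint replicates 1 to 5 it was 110.0, 119, 109.8, 120.1 and 104 CPM, so every endpoint tumor lay below every midpoint one. In lean midpoint replicates 1 to 4 it was 147, 122, 123 and 172 CPM and in lean endpoint replicates 1, 2, 3 and 5 it was 57.1, 147, 119 and 117 CPM, with overlapping groups. The log2 difference was -1.11 ± 0.23 (SE, adjusted p = 0.000272, edgeR) in obese tumors and -0.10 ± 0.14 (SE, adjusted p = 0.547, edgeR) after the correction. In lean tumors it was -0.35 ± 0.26 (SE, adjusted p = 0.290, edgeR) and 0.09 ± 0.16 (SE, adjusted p = 0.718, edgeR).

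Slc27a3, a synthetase of long and very long chains with little evidence for uptake, had group means of 0.797 to 1.06 CPM. Its uncorrected differences over time were 0.35 ± 0.35 (SE) in lean and 0.01 ± 0.31 (SE) in obese tumors, neither past the test. After the correction it was 0.85 ± 0.34 (SE, adjusted p = 0.0729, edgeR) in lean, and in obese tumors it rose by 1.09 ± 0.30 (SE, adjusted p = 0.00415, edgeR). Its GC content is at percentile 97.4 of the tested genes, and this rise is seen after the correction alone, at 30 to 90 counts in a library.

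After the correction 2 of the 8 members passed over time in lean tumors, Acsl3 higher and Acsl1 lower, where 24.4% of all genes did, 12.4% higher and 12% lower. In obese tumors 5 passed, with Acsl3, Acsl4 and Slc27a3 higher and Acsl1 and Slc27a4 lower, where 57.5% of all genes did, 25.4% higher and 32.1% lower. Acsl3 in both and Slc27a4 and Acsl4 in obese tumors were the calls that had the same direction with and without the correction. The interaction of diet and time was past the threshold for 0 of the 8 members by edgeR, as for 0% of all genes. At an unadjusted p under 0.05 there were 2 members and 5451 genes, and DESeq2 called 0 members and limma-voom 4. At the midpoint limma-voom called more of all genes than edgeR did, 8458 against 4825. The share of all genes that limma-voom called for the interaction is not given here, so nothing is read from its count of members.

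**Figure D3:**
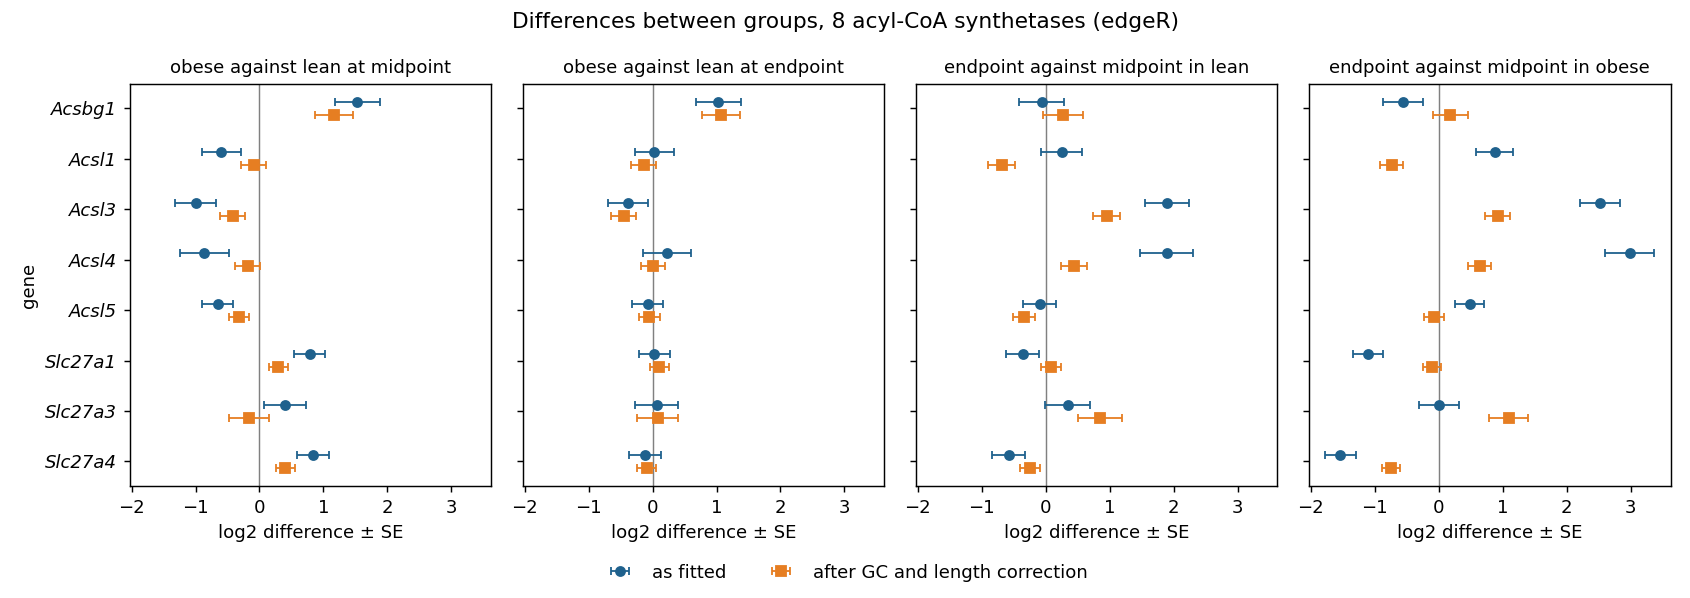
Log2 differences with SE for the 8 genes in the 4 comparisons named above the panels, as fitted with edgeR (circles) and after the correction for GC content and transcript length (squares). The endpoint difference of Acsbg1 is 1.03 and 1.07, whereas that of Acsl4 over time in obese tumors moves from 2.98 to 0.64 and that of Acsl1 from 0.87 to -0.74.

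**Figure D4:**
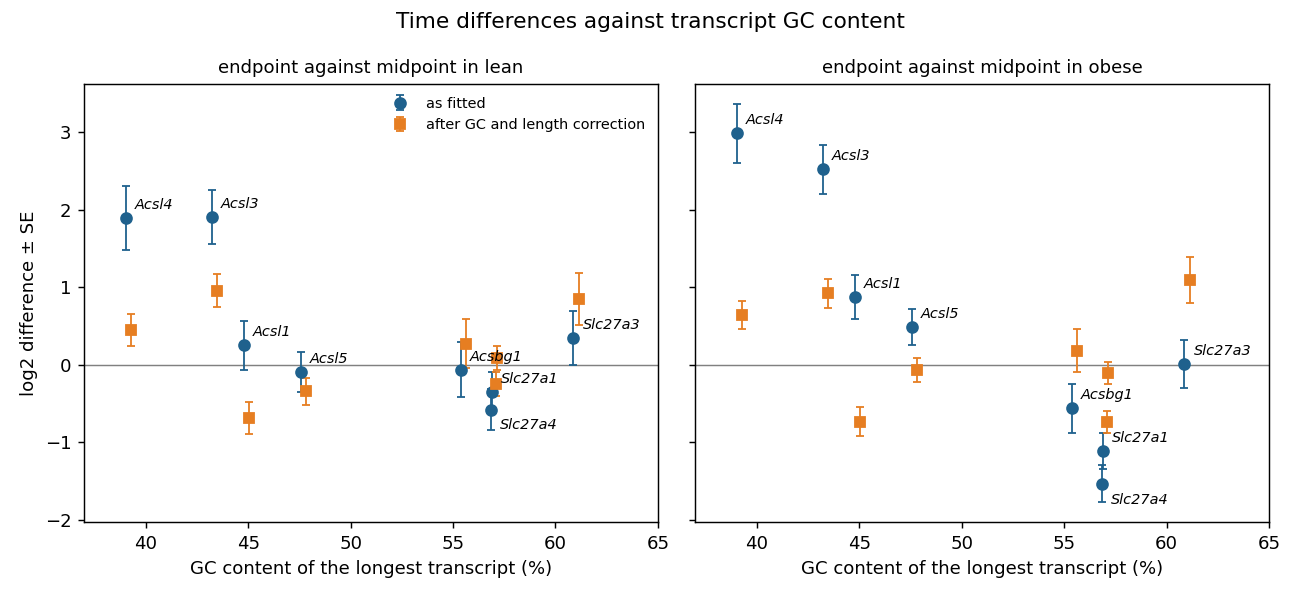
The log2 difference of endpoint against midpoint with SE is plotted against the GC content (%) of the longest transcript, in lean (left) and obese tumors (right), as fitted (circles, with gene names) and after correction (squares, shifted slightly to the right). As fitted in obese tumors, the values run from 2.98 for Acsl4 at 39.0% GC to -1.53 for Slc27a4 at 56.8% GC, and after correction they lie between -0.74 and 1.09.

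Correlations between members across the 18 libraries are given as a description, since these libraries share their group, GC slope and time. Pearson's r of log2 CPM was 0.97 between Acsl3 and Acsl4, 0.96 between Slc27a1 and Slc27a4 and 0.91 between Acsl1 and Acsl5, whereas it was -0.93 between Acsl3 and Slc27a4. After the correction it was 0.85 between Acsl3 and Acsl4, 0.72 between Acsl1 and Acsl5 and 0.55 between Slc27a1 and Slc27a4, and between Acsl1 and Acsl3 it moved from 0.82 to -0.48. Acsbg1 had r of 0.66 with Slc27a1 and -0.69 with Acsl5, and 0.59 and -0.50 after the correction. Slc27a3, with its low counts, had r of 0.05 with Acsl3, 0.11 with Acsl4 and 0.14 with Slc27a4 as fitted, and 0.80, 0.80 and -0.72 after the correction.

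Among 12406 genes with a mean of at least 1 CPM, those with levels most like Acsbg1 over the 18 libraries were Pde1b (r = 0.79), Khnyn (0.79), Arv1 (0.79), Leng8 (0.77) and Blcap (0.77). Pde1b encodes a calcium- and calmodulin-dependent phosphodiesterase, and Arv1 a protein of sterol and sphingolipid transport in the endoplasmic reticulum. The most opposite were Dgka (-0.89), a diacylglycerol kinase, Entpd5 (-0.83) and Cass4 (-0.82). After the correction the 5 highest were Ntmt1 (0.80), Khnyn (0.79), Frk (0.77), Slc48a1 (0.75) and Zfp932 (0.73) and the 3 lowest Rnf144b (-0.75), Sarnp (-0.74) and Adgrg1 (-0.73), so of the 5 highest Khnyn was on both.

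Further synthetases were few in these cells. Of 17 other acyl-CoA synthetase genes 8 passed the filter. Aacs, which activates acetoacetate, had a mean of 71.3 CPM, Acsl6, a long-chain synthetase of brain and testis, 39.8 CPM, and Acss2, the cytosolic acetyl-CoA synthetase, 19.6 CPM. The liver enzymes Slc27a2 and Slc27a5 had means of 0.0122 and 0.0105 CPM, and Acsbg2, the other bubblegum gene, 0.137 CPM. Over time in obese tumors 2 of these 8 rose and 4 fell as fitted, and 0 rose and 4 fell after the correction, where 73.9% and 57.5% of all genes passed. Aacs fell by 1.34 ± 0.20 on the log2 scale (SE, adjusted p = 8.1e-06, edgeR), and by 0.51 after the correction, and Acsl6 rose by 1.34 ± 0.22 (SE, adjusted p = 2.1e-05, edgeR) as fitted and fell by 0.35 (adjusted p = 0.0312, edgeR) after the correction. In lean tumors 0 rose and 1 fell as fitted, where 30.9% of all genes passed, 21.4% higher and 9.5% lower. At the endpoint 0 of 8 differed between obese and lean, where 0.00612% of all genes did.

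Genes that handle acyl-CoA after its synthesis were compared in the same way, and the counts that follow for obese tumors over time stand beside 73.9% of all genes called as fitted (37.8% higher, 36.1% lower) and 57.5% after the correction (25.4% higher, 32.1% lower), and those for lean tumors beside 30.9% and 24.4%. Of 7 tested genes of the carnitine shuttle, which carries acyl groups into mitochondria, 1 rose and 5 fell over time in obese tumors, and 1 rose and 4 fell after the correction. Crat, the carnitine acetyltransferase, fell by 1.44 ± 0.19 (SE, adjusted p = 2.1e-06, edgeR), Slc25a20, the carnitine-acylcarnitine carrier, fell by 1.06 ± 0.15 (SE, adjusted p = 6.7e-06, edgeR) and Cpt2 fell by 1.00 ± 0.17 (SE, adjusted p = 3.1e-05, edgeR) on the log2 scale, and all 3 fell after the correction too, by 1.06, 1.43 and 0.52. Crot, which acts on medium chains from peroxisomes, rose by 2.31 ± 0.28 (SE, adjusted p = 1.2e-06, edgeR), and by 0.73 after the correction. In lean tumors 1 of the 7 rose and 0 fell as fitted, and 0 rose and 1 fell after the correction.

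Of 18 tested glycerolipid and sterol acyltransferases, which use acyl-CoA to build phospholipids and storage lipids, 5 rose and 11 fell over time in obese tumors, and 1 rose and 9 fell after the correction. The 4 with the smallest p fell by 1.12 ± 0.16 (Agpat3, SE, adjusted p = 5.1e-06, edgeR), 1.44 ± 0.21 (Agpat2, adjusted p = 6.0e-06), 1.12 ± 0.16 (Agpat4, adjusted p = 7.3e-06) and 0.85 ± 0.13 (Gpat4, adjusted p = 1.2e-05). After the correction these 4 fell by 0.89, 0.31, 0.44 and 0.88. In lean tumors 0 rose and 7 fell as fitted, and 1 rose and 4 fell after the correction. The median log2 difference of the list was -0.78 in obese and -0.40 in lean tumors as fitted, and -0.24 and -0.31 after the correction, beside -0.09 and -0.03 over all genes.

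The remaining lists of the pathway were mixed. Of 6 acyl-CoA binding protein genes 2 rose and 3 fell over time in obese tumors, with Acbd3, a Golgi protein, at 2.67 ± 0.32 (SE, adjusted p = 1.0e-06, edgeR) and 0.67 after the correction and Acbd5, a peroxisomal protein, at 2.87 ± 0.36 (SE, adjusted p = 1.6e-06, edgeR) and 0.72 after the correction, and 2 rose and 2 fell after the correction. Of 7 thioesterase genes, which split acyl-CoA again, 1 rose and 4 fell, and 0 rose and 3 fell after the correction. Of 11 genes of very long chain elongation 5 rose and 2 fell, with Elovl6, which elongates palmitate, at 2.61 ± 0.29 (SE, adjusted p = 5.6e-07, edgeR) and at 0.87 after the correction, and 1 rose and 5 fell after the correction. Of 9 genes of transcription factors that act on fatty acid genes 1 rose and 7 fell, and 1 rose and 5 fell after the correction. Those with the smallest p were Srebf2 (-1.71 ± 0.24, SE, adjusted p = 5.8e-06, edgeR), Rxrb (-1.40 ± 0.22, SE, adjusted p = 1.9e-05, edgeR) and Srebf1 (-1.35 ± 0.23, SE, adjusted p = 3.7e-05, edgeR). After the correction they were at -0.93, -0.46 and -0.60. In every one of these lists 0 genes differed between obese and lean tumors at the endpoint by edgeR. Over all tested genes 0.00612% did, which is 1 gene, so nothing is read from these counts.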

How the data were processed

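RNA-seq libraries of sorted tumor cells were analysed. The authors deposited 1 table of whole-number counts per gene, not normalized, for 39017 genes and 19 libraries; all deposited values were whole, so no estimated counts were rounded. Per the submitters' processing notes, TopHat, DESeq and mm10 were used, in roles and versions not listed. No source used here gives the counting tool, the annotation release or the strand setting. Symbols and transcripts matched 37607 genes by identifier. Counts that are split or merged between similar or overlapping genes would change their values.

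The counts were fitted with edgeR 4.0.16 under R 4.3.3 (filterByExpr, TMM, 1 mean per group, quasi-likelihood test, Benjamini-Hochberg adjustment over all tested genes, threshold 0.05). CPM and RPKM were computed from TMM-scaled library sizes, and correlations used log2 CPM with a prior count of 2. The correction used a per-library spline trend (5 degrees of freedom each) of log2 CPM with GC content and log2 length as an offset, on 16122 genes. DESeq2 1.42.0 and limma 3.58.1 were alternatives. The fit was tested on simulated data. For 32 replicate pairs, chi-square divided by its degrees of freedom was at least 35.7, so none was a repeat. Libraries are separate tumors, so p-values measure the spread between tumors.

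Groups were taken from the labels, and 18 libraries entered the fit. The named genes are the 8 members, up to 4 genes per pathway list with the smallest p in the comparison described, and the genes most like or unlike Acsbg1, without Gm, Rik or identifier-only names. The members and lists were chosen with earlier results of these data known. Alternatives comprised other normalization, filters and tools, fits of the compared groups alone, a replicate block, GC corrections, a leukocyte covariate, all 19 libraries on chromosomes 1 to 4, and each library left out. The fits with GC content alone and with 3 libraries left out were added after the data were seen.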

Additional observations from a re-analysis of the deposited data

Results flagged for a closer look

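Acsl4 in lean midpoint replicate 4, at 15.5 CPM, stood apart from the other 3 tumors of its group, which had 8.87 to 9.95 CPM, by more than the gap that a test for a single outlying sample allows. Chance gives such a gap in about 1 of 20 groups, and 32 groups (8 genes in 4 groups) were examined, with 1 flag.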

How the results depend on the processing

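The replicate numbers in the sample names were not used as pairs in the main fits. The 24 pairs of libraries with the same number in different groups had correlations of their deviations from -0.40 to 0.55 (median -0.04), and 6 were over 0.1. The 97 pairs with different numbers had -0.50 to 0.37 (median 0.01), and 27 were over 0.1. Such correlations cannot exclude a pairing. With the number as a replicate block, 6, 0, 2, 6 and 0 members were called at the midpoint, at the endpoint, over time in lean, over time in obese and for the interaction, beside 5, 0, 2, 5 and 0. At the midpoint 0 members were called in a fit of the compared groups alone, with the GC and length correction plus the replicate block, with the leukocyte covariate and without the 3 libraries that stand apart (lean endpoint replicate 1, obese midpoint replicates 2 and 3). With the GC and length correction or GC alone 1 was. Leaving out 1 library gave 0 to 7, with 0 without lean midpoint replicate 2 or 3 or obese midpoint replicate 2 or 3. Over time in lean tumors GC correction alone left 1, and leaving out 1 library gave 2 to 3; in obese tumors it gave 5 to 7. The interaction had 4 members with limma-voom, and 0 to 4 with 1 library left out, the 4 without obese midpoint replicate 1. The endpoint count was 0 in every setting run. The number of all genes called changed with the setting too: at the midpoint it was 4825 by edgeR, 6206 by DESeq2 and 8458 by limma-voom. The counts of members above may follow that number, and nothing is read from them. The causes of these changes were not tested.

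Signs turned, on the log2 scale, mostly in differences that had not passed. In the GC and length correction, the same with the block, and GC alone, respectively, Slc27a3 at the midpoint was -0.16, -0.27 and -0.19, Acsl1 at the endpoint -0.14, -0.13 and -0.0515, Acsbg1 over time in lean tumors 0.27, 0.35 and 0.28 and in obese tumors 0.18, 0.18 and 0.22. In the same order Acsl1 over time was -0.69, -0.69 and -0.46 in lean and -0.74, -0.72 and -0.36 in obese tumors, Slc27a1 over time in lean tumors 0.0864, 0.0711 and 0.023, and Acsl5 over time in obese tumors -0.0701, -0.0477 and -0.12. With the leukocyte covariate Slc27a3 at the midpoint was -0.0092. With limma-voom Acsl1 and Slc27a3 at the endpoint were -0.0479 and -0.22, Acsbg1 over time in lean 0.0499 and Slc27a3 over time in obese tumors -0.26. With the replicate block alone the last 2 were 0.0151 and -0.0551, and without the 3 libraries Slc27a1 at the endpoint was -0.19 and Acsbg1 over time in lean tumors 0.13. With all 19 libraries Slc27a3 over time in obese tumors was -0.0938.

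Leaving out 1 library turned signs at the endpoint for Slc27a1 (-0.18 to 0.22), Acsl1 (-0.0445 to 0.11), Acsl4 (-0.0438 to 0.44), Slc27a3 (-0.21 to 0.21) and Slc27a4 (-0.27 to 0.0045), over time in lean tumors for Acsbg1 (-0.38 to 0.17) and Acsl5 (-0.19 to 0.0022), and over time in obese tumors for Slc27a3 (-0.26 to 0.16). The fit with all 19 libraries gave no count of members, because 5 have no counts in the added library, and for the interaction a fit of the compared groups is the same fit. The 30 to 90 counts of Slc27a3 limit its precision.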

Other observations

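Lean endpoint replicate 4, left out of the comparisons, has counts for the 3 members on chromosomes 1 to 4. Scaled to its counts on these chromosomes, Acsl3 stood at 938 CPM, above the other 18 libraries (36.1 to 735). Slc27a4 stood at 166 CPM, within their range of 88.9 to 571, and Slc27a3 at 3.66 CPM, within 2.79 to 8.43.

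Khnyn was the 1 gene among the 5 most like Acsbg1 both as fitted and after the correction for GC content and length, with r = 0.79 in each over 18 libraries. It was named by a fixed number of ranks among 12406 and 12280 genes, and no test was made of it.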
